A study of Arabidopsis thaliana with 2 samples.

Results

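Tau class glutathione transferases were described through 4 genes, GSTU15, GSTU16, GSTU18 and GSTU27, in young rosette leaves of the Arabidopsis thaliana line BOUNTIFUL and of wild-type Ws-0, the accession it was made in. The members were chosen by their mean signal over both arrays: they are the probe sets assigned to exactly 1 gene with a GSTU symbol, other than GSTU20, whose mean was at least 39.88 units. They are 4 of the 5990 genes with a named probe set above that threshold and of the 13356 with any named probe set. Background shares below are over the 11373 probe sets, named or not, that passed it. Mean levels are thus a description. The difference between the genotypes is not part of the rule, but the genes were chosen, and GSTU20 left out by name, with earlier results of these data known. The TAIR10.1 gene table lists 28 tau class genes, of which 11 had a probe set named here and 17 had none and were not analysed here.

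BOUNTIFUL carries an activation tag, an I/dSpm transposon insert, in BOU in the Ws-0 background, and Ws-0 is the unmodified accession. RNA came from a mixture of the 4 youngest rosette leaves at developmental stage 6.50, from glasshouse plants grown on a compost mix in days of 16 h of light at 23 °C. Each genotype was represented by 1 mixture on 1 Affymetrix array, and the number of plants per mixture was not given in the labels. No difference below has a replicate check, no test was possible, and each value compares a pair of RNA mixtures from which neither the spread between plants nor that between BOUNTIFUL lines can be read. In a whole-leaf mixture, fewer cells of a type and less RNA per cell cannot be told apart.

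Glutathione transferases join the tripeptide glutathione to reactive or foreign molecules, which marks these for storage or breakdown, and some carry or reduce small molecules instead. The tau class is the largest one in Arabidopsis, is found in plants, and uses an active-site serine to activate glutathione. Many tau genes are known for induction by herbicides, herbicide safeners, oxidative stress and hormones, and several lie in tandem rows that arose by gene duplication. Glutathione itself is made from cysteine, the product of sulfate assimilation, and its oxidised form is returned to the reduced form by glutathione reductase.

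The arrays had median signals of 38.9 units in BOUNTIFUL and 39.0 units in Ws-0. Of genes that mark the labelled tissue, the leaf antenna gene LHCB4.1 had a strong signal, with 3729 units in BOUNTIFUL and 3210.3 units in Ws-0, while the floral gene UFO had 1.10 and 2.36 units and the pollen actin ACT12 had 2.63 and 6.26. The 27 Bacillus subtilis controls, which have no target in a leaf, reached 21.9 units on the BOUNTIFUL array and 16.7 on the Ws-0 array, and a signal in that range is not distinguishable from background. Differences are given as log2 ratios, BOUNTIFUL over Ws-0, of signal plus 7.77 units, which understates the difference of low signals. Fold differences of single genes also include these 7.77 units, the pseudocount, unless stated otherwise. A gene was counted as different from a 2-fold ratio, a log2 ratio of 1 or -1.

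GSTU16 (AT1G59700, probe set 262916_at) had the member log2 ratio farthest from 0. Its signal was 187 units in BOUNTIFUL and 323 units in Ws-0, a log2 ratio of -0.76 and a 1.69-fold lower value in BOUNTIFUL. Both signals were far above the controls, at 8.54 times the highest control signal in BOUNTIFUL and 19.3 times in Ws-0. The pseudocount therefore mattered little, and the log2 ratio was -0.79 with none. Of all passing probe sets, 7.59% had a log2 ratio as low or lower.

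GSTU15 (AT1G59670, probe set 262074_at) lies close to GSTU16, with 3 protein-coding genes between them in the gene table. Its signal was 47.2 units in BOUNTIFUL and 70.5 units in Ws-0, a log2 ratio of -0.51. Like GSTU16 it was lower in BOUNTIFUL, by 1.42-fold with the pseudocount and 1.49-fold with none. The log2 ratios of these neighbours lay 0.25 apart. The GSTU15 signal in BOUNTIFUL was only 2.15 times the highest control, the closest to background among the members, and its log2 ratio was -0.58 with no pseudocount. Among passing probe sets, 16.6% were as low or lower.

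GSTU18 (AT1G10360, probe set 264435_at) sits directly beside ERD9, the gene for GSTU17, which had no probe set named here. Its signal was 272 units in BOUNTIFUL and 340.1 units in Ws-0, a log2 ratio of -0.31, or 1.24-fold lower. A log2 ratio this low or lower was common, with 28.8% of passing probe sets.

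GSTU27 (AT3G43800, probe set 252712_at), which has no tau class gene on either side, was the member with the higher signal in BOUNTIFUL. It had 646 units in BOUNTIFUL and 578 units in Ws-0, a log2 ratio of 0.16, or 1.11-fold higher. Of passing probe sets, 73.7% had a log2 ratio at least as far from 0 in either direction, so its signals in the 2 mixtures were close.

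**Figure D1:**
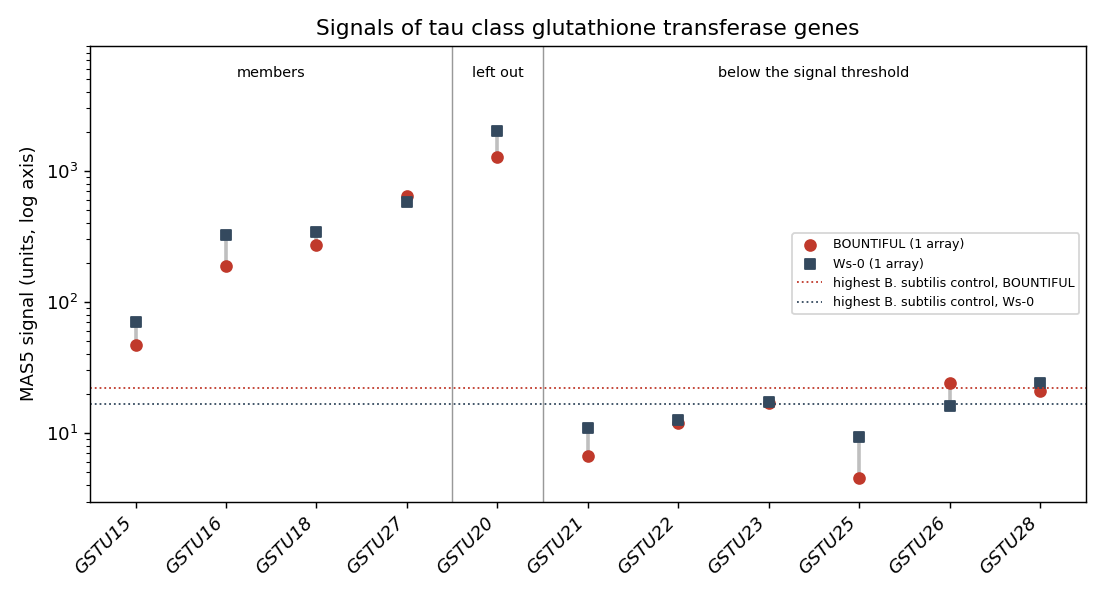
MAS5 signal in units (log axis) of the 11 tau class genes with a named probe set, with 1 circle for the BOUNTIFUL array and 1 square for the Ws-0 array, a grey bar joining them, and dotted lines at the highest Bacillus subtilis control of each array (21.9 and 16.7 units). The squares lie above the circles for GSTU15, GSTU16, GSTU18 and GSTU20, the circle lies above for GSTU27, and the 6 genes on the right lie near or below the dotted lines. Levels of different probe sets are not comparable with each other.

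Together, 3 of the 4 members had log2 ratios below 0 and 1 above, against 55.1% of all passing probe sets below 0. None was at least 2-fold higher and none at least 2-fold lower in BOUNTIFUL, while 4.63% of passing probe sets were higher and 3.98% lower by that measure. The median log2 ratio of the members was -0.41, beside -0.06 over all passing probe sets, whose 25th percentile was -0.37 and 75th percentile 0.26. GSTU16 and GSTU15 lay below the 25th percentile, and GSTU18 and GSTU27 lay between the 25th and the 75th. With 4 members, a count of none at 2-fold is close to the background share and says nothing particular of them.

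**Figure D2:**
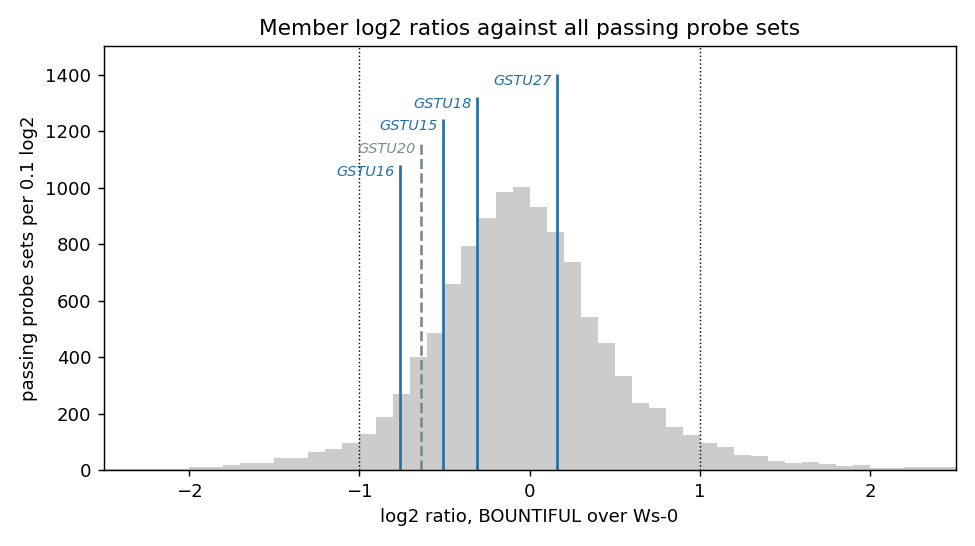
Histogram of the log2 ratio, BOUNTIFUL over Ws-0, of the 11373 passing probe sets in steps of 0.1, with solid lines at the 4 members, a dashed line at GSTU20, and dotted lines at a 2-fold difference. The histogram is cropped at 2.5 on either side, and each of the 5 lines falls between the dotted ones, with GSTU16 at -0.76 farthest left and GSTU27 at 0.16 farthest right.

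The size of these differences can be set against how well 2 probe sets of 1 gene agreed. Among the 33 genes read by 2 passing probe sets, the median gap between both log2 ratios of a gene was 0.21 and its 90th percentile 0.54. The gap holds the scatter of 2 readings and is wider than that of 1, whose SD within a gene was 0.27. It is thus a loose limit for a member read once. The values of GSTU18 and GSTU27 lay within 0.54 of 0, as did that of GSTU15 at -0.51, and that of GSTU16 lay beyond it. This placing turned with the setting, with the limit kept at 0.54 as read with the pseudocount on the deposited scale. GSTU15 lay beyond 0.54 with no pseudocount, at -0.58, and GSTU16 within it under the spike scalings, at -0.42 and -0.23. GSTU27 lay beyond it when scaled to the older spikes, at 0.70. This spread covers the reading of a transcript by different probe sets on the same arrays, and no spread between plants. Every member was read by 1 probe set, none of which carried a suffix that marks possible cross-hybridisation. Signal shared between close paralogs was not tested.

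The direction within the family depended on the scaling between arrays. The 9 newer probe sets for hybridisation spikes, bacterial and phage transcripts added at hybridisation, had a mean log2 ratio of -0.35. They ranged from -0.46 to -0.24. The 9 older ones had a mean of -0.55 and ranged from -0.87 to -0.35. Scaled to the newer spikes, the log2 ratio of GSTU16 was -0.42, that of GSTU15 -0.20, that of GSTU18 0.03 and that of GSTU27 0.51. Scaled to the older spikes they were -0.23, -0.03, 0.22 and 0.70 in the same order. GSTU16 and GSTU15 thus had log2 ratios below 0 in each scaling used, and GSTU27 above 0 in each. GSTU18 turned to above 0 under both spike scalings, where 27.5% and 16.8% of all passing probe sets had log2 ratios below 0. The values of -0.03 for GSTU15 and 0.03 for GSTU18 were small beside the spread among the spikes, so their signs are not settled.

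The order of the members did not depend on a factor applied to a whole array. GSTU27 and GSTU16 differed by 0.94 in their log2 ratios with no pseudocount, a 1.92-fold difference in how the 2 genes compared between the genotypes. This is the widest gap among 4 single readings. With the pseudocount, the SD of the log2 ratio over all passing probe sets was 0.62. The gap of 0.25 between GSTU16 and GSTU15 was near the median gap of 0.21 between 2 probe sets of 1 gene. On the deposited scale GSTU16 was lowest, then GSTU15, GSTU18 and GSTU27. Median centring and the spike scalings shift all members by nearly the same amount, so they could hardly change this order. Quantile normalisation and loess do not shift all genes alike, and the order was the same under both. They moved the members little, however. GSTU27 went from 0.16 to 0.08 under quantile normalisation, and GSTU15 from -0.51 to -0.44 under loess. The kept order is thus a weak check.

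**Figure D3:**
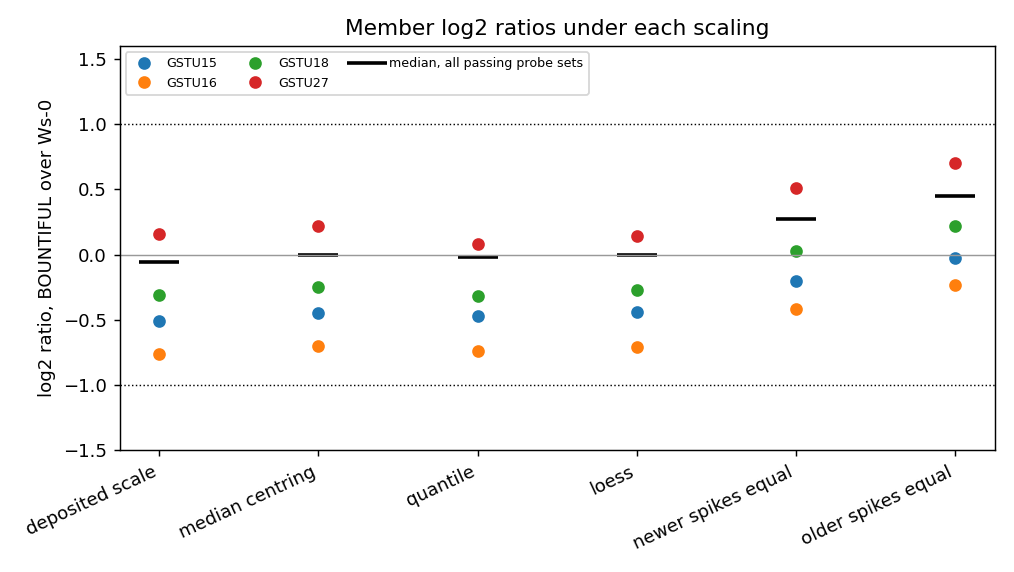
Log2 ratio, BOUNTIFUL over Ws-0, of the 4 members (points) and the median of all passing probe sets (black bars) on the deposited scale and under 5 other scalings, with dotted lines at a 2-fold difference. All points keep the same order, which none of the scalings drawn was likely to change. GSTU18 crosses 0 under both spike scalings, and no point reaches a dotted line.

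Of the tau class genes outside the members, GSTU20 (AT1G78370), a gene of aliphatic glucosinolate synthesis, had 1289 units in BOUNTIFUL and 2013 units in Ws-0, a log2 ratio of -0.64 that fell between those of GSTU16 and GSTU15. It stands in a tandem row with GSTU19, GSTU21, GSTU22 and GSTU23. Its named neighbours in that row were near background on both arrays. GSTU21 had 6.67 units in BOUNTIFUL and 10.9 units in Ws-0, GSTU22 had 11.9 and 12.6, and GSTU23 had 16.9 and 17.1.

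The other 3 genes below the threshold were also dim. GSTU25, whose enzyme is known for acting on the explosive trinitrotoluene, had 4.52 units in BOUNTIFUL and 9.38 units in Ws-0. Its log2 ratio was -0.48, and -1.05 with no pseudocount, but both signals lay in the range of the controls. GSTU26, the next gene on the chromosome, had 23.9 units in BOUNTIFUL and 16.1 units in Ws-0, a log2 ratio of 0.41. GSTU28 had 20.9 and 23.9 units.

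Of these 6 genes, 3 lay within the control range on both arrays and 3 exceeded it on 1 array, so their log2 ratios, from -0.48 to 0.41, are given without a reading of direction. The threshold separated GSTU15, the dimmest member with a mean signal of 58.8 units, from GSTU28, the brightest of these 6 genes, with 22.4. No tau class gene fell near the limit of 39.88 units.

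The measured genes nearest to each member were read as well. The position of the activation tag relative to the members was not read, and an effect of its enhancer was not tested. Beside GSTU15 and GSTU16, CW14 (AT1G59650) had a log2 ratio of 0.53, with 64.3 units in BOUNTIFUL and 42.3 units in Ws-0. On their other side AT1G59710, directly next to GSTU16, had 0.20, with 85.8 and 73.9 units. These nearest measured genes, with log2 ratios above 0, thus differed in direction from GSTU15 and GSTU16. Beside GSTU18, AT1G10350 had 0.02 and AT1G10380 had 0.05. The nearest measured genes to GSTU27 were 8 and 21 protein-coding genes away, with log2 ratios of -0.18 for AT3G43670 and 0.02 for AT3G44020.

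Genes that supply glutathione, reduce it or share its chemistry were read from 9 lists with 97 genes in the gene table. Only 7 of these genes had a named probe set that passed the threshold, in 4 of the lists. Of the 7, 6 had log2 ratios below 0, 1 was at least 2-fold lower and none at least 2-fold higher in BOUNTIFUL, against 55.1% of passing probe sets below 0 and 3.98% at least 2-fold lower.

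In the list of glutathione synthesis and reduction, both measured genes were glutathione reductases. GR1 (AT3G24170) had 279.6 units in BOUNTIFUL and 604 units in Ws-0, a log2 ratio of -1.09. This was the lowest ratio among the 7 measured genes, and 3.18% of passing probe sets were as low or lower. Scaled to the newer spikes it was -0.75 and scaled to the older ones -0.56, short of 2-fold in both. GR (AT3G54660), the organellar reductase, had 499 and 629 units, a log2 ratio of -0.33 that became 0.02 when scaled to the newer spikes and 0.21 to the older.

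Only 3 of the 18 genes listed for sulfur assimilation and cysteine synthesis had a named probe set, so most of the list was not read. All 3 were measured and lower in BOUNTIFUL, none by 2-fold, with a median log2 ratio of -0.69. Of all passing probe sets, 55.1% had a log2 ratio below 0. APS3 (AT4G14680), an ATP sulfurylase that activates sulfate, had 197 units in BOUNTIFUL and 351 units in Ws-0, a log2 ratio of -0.81. APS4 (AT5G43780), of the same enzyme family, had 194 and 317 units, a log2 ratio of -0.69. SIR (AT5G04590), the sulfite reductase that makes sulfide, had 670.2 and 1056 units, a log2 ratio of -0.65. These 3 genes stayed below 0 when scaled to the newer spikes, at -0.47, -0.35 and -0.30, and when scaled to the older, at -0.28, -0.16 and -0.11. Of the members, GSTU16 at -0.76 and GSTU15 at -0.51 lay near these values, while GSTU18 at -0.31 and GSTU27 at 0.16 lay above them. Of passing probe sets, 6.6% were as low as APS3 or lower, and 10.9% as low as SIR or lower.

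Other glutathione transferase classes were represented above the threshold by GSTL3 (AT5G02790) of the lambda class, which uses a cysteine in place of the serine and reduces bonds to glutathione. It had 1089 units in BOUNTIFUL and 1337 units in Ws-0, a log2 ratio of -0.29 that was 0.06 when scaled to the newer and 0.25 to the older spikes. Both named phi class genes lay below the threshold and had higher signals in BOUNTIFUL. GSTF4 (AT1G02950) had 41.7 units against 22.6, a log2 ratio of 0.70, and ATGSTF13 (AT3G62760) had 18.2 against 6.23, a log2 ratio of 0.89 with both signals in the control range.

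The xenobiotic and oxylipin response list was read through UGT76C2 (AT5G05860), which is known as a cytokinin glucosyltransferase. It had 57.5 units in BOUNTIFUL and 26.9 units in Ws-0, a log2 ratio of 0.91, and its Ws-0 signal alone was below the threshold. The log2 ratio passed 2-fold with no pseudocount, at 1.10, and under both spike scalings, at 1.23 and 1.40. It stayed short of 2-fold at 0.67 with the 40th percentile as pseudocount, and at 0.97, 0.93 and 0.93 with median centring, quantile normalisation and loess, and the gene dropped out with the 75th percentile as filter. UGT73B5 (AT2G15480), a stress-induced glucosyltransferase, had 1.20 units against 17.2, a log2 ratio of -1.47. It lay below the threshold, with its BOUNTIFUL signal in the range of the controls and its Ws-0 signal close to their highest there, 16.7 units. The log2 ratio was -3.84 with no pseudocount, so its size depends on the pseudocount. The remaining lists, of dehydroascorbate reductases, glutathione peroxidases, glutathione breakdown, ABCC conjugate transporters and phi class genes, held no gene above the threshold with a named probe set and were not analysed further here.

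**Figure D4:**
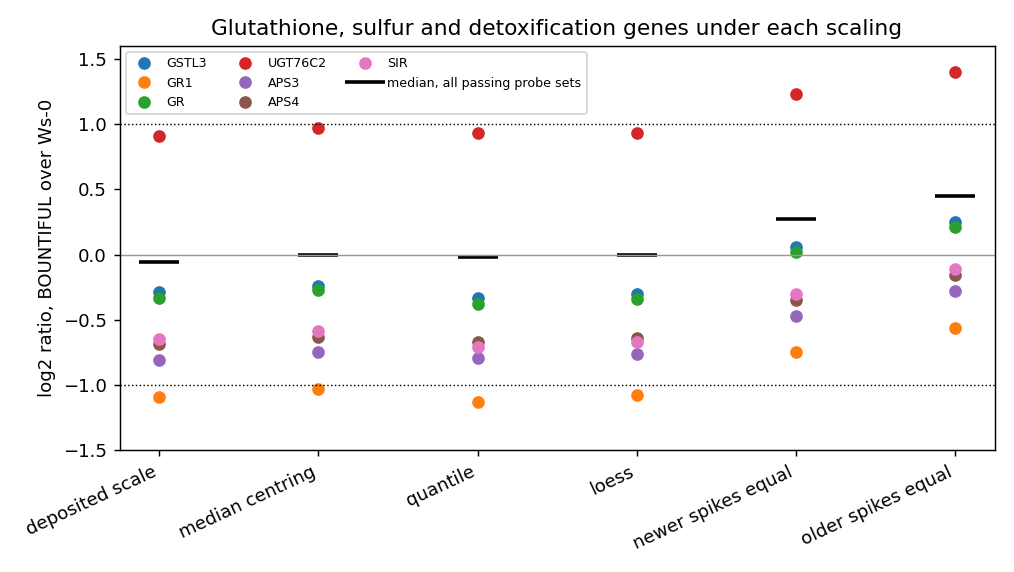
Log2 ratio, BOUNTIFUL over Ws-0, of the 7 measured genes of the glutathione, sulfur and detoxification lists (points) and the median of all passing probe sets (black bars) on the deposited scale and under 5 other scalings, with dotted lines at a 2-fold difference. GR1, APS3, APS4 and SIR lie below 0 in every scaling drawn, GSTL3 and GR cross 0 under both spike scalings, and UGT76C2 lies above 0 throughout.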

How the data were processed

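Total RNA was labelled with biotin and hybridised to 1 Affymetrix array per genotype. The deposited values are linear intensity signals that came from MAS5, as the submitters' processing notes name it without a version. Both arrays had a mean of 100.0 once 2% of signals were trimmed at each end, which shows that the authors had scaled the values before deposit. Control probe sets (64) were left out of the threshold and of the passing set, but not of the pseudocount or the quantile normalisation. A pseudocount of 7.77 units, the 20th percentile over both arrays, was added. The threshold was the median of the mean signal over Arabidopsis probe sets, 39.88 units. Of the probe sets, 13513 had 1 gene in a platform annotation of 2016 and 503 had several. Locus tags and gene order came from the TAIR10.1 gene table. Of the list symbols, 3 were not matched there. No coordinates are given, since the files name no genome build.

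No test was made with 1 array per genotype. The members and gene lists were chosen with earlier results of these data known. Every member, every other GSTU gene with a probe set and every measured list gene was named, with list genes below the threshold added where they had a named probe set. Alternatives were other scalings, pseudocounts and filters. The calculation was tested on simulated data with little noise. The planted changes were larger than those of the members and in probe sets brighter than that of GSTU15. That test therefore did not cover differences of the size read here. Values were computed with Python 3.11.15, pandas 2.3.3 and statsmodels 0.14.6. Depth does not apply to arrays, and their number limits the precision. No sequences are shown, since no sequence table was used here.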

Additional observations from a re-analysis of the deposited data

How the results depend on the processing

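No paired analysis was possible because there was 1 array per genotype, and no array could be left out. The count of members at least 2-fold higher and that at least 2-fold lower stayed at 0 under all 11 alternatives, which were median centring, quantile normalisation, loess, both spike scalings, no pseudocount, the 40th percentile as pseudocount, no filter, the 75th percentile as filter, leaving out cross-hybridising probe sets, and taking a gene's brightest probe set. A value was taken as moved when it changed by more than 0.27, the SD of 1 probe set within genes read by 2. That happened under the spike scalings alone, which multiply every BOUNTIFUL signal by 1 factor. Scaled to the newer spikes, the median log2 ratio of members was -0.08, with GSTU15 at -0.20, GSTU16 at -0.42, GSTU18 at 0.03 and GSTU27 at 0.51. Scaled to the older spikes, the median was 0.10, with GSTU15 at -0.03, GSTU16 at -0.23, GSTU18 at 0.22 and GSTU27 at 0.70. Under the other 9 alternatives the median stayed between -0.45 and -0.23, the latter with no filter, where it was taken over 10 genes in place of 4. The filter at the 75th percentile removed GSTU15. No tau class gene had a second probe set or a cross-hybridisation suffix, so the last 2 alternatives left the members' values as they were. The alternatives for genes of the other lists were added after the data were seen. Which scaling is right was not tested, and signals near 21.9 units in BOUNTIFUL or 16.7 in Ws-0 are limited by background.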
